A study of Homo sapiens with 12 samples.

Results

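The 9 genes of the human PAX family, PAX1 to PAX9, were examined for peaks of YTHDF1, RNF2 and H2AK119ub. They were chosen by name, and all 9 were found among the 20037 protein-coding genes of the RefSeq table on the autosomes, X and Y. A peak counted as lying at a gene when it overlapped the gene body or the 10 kb on either side by at least 1 bp, and this stretch is called the window below. The 9 windows added up to 827 kb of the hg38 genome. The data came from chromatin immunoprecipitation and sequencing (ChIP-seq) in H1, an established line of human embryonic stem cells, grown in mTeSR1 medium. Untreated H1 cells gave libraries for YTHDF1, RNF2, H2AK119ub and input, and H1 cells treated with an shRNA to YTHDF1 (the knockdown) gave libraries for YTHDF1 and input, each with 2 replicates. The authors merged the replicates of each immunoprecipitated group into 1 peak list, so 4 lists were available, there is no spread between replicates, and no test between conditions could be made. Whether the knockdown cells were a clone or a pool is not given in the sources used here, and the sequencing depth is unknown because no read totals accompany the peaks.

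PAX proteins are transcription factors that bind DNA through a paired domain and direct organ formation in the embryo. They fall into 4 subgroups by the parts they carry beside that domain: PAX1 and PAX9; PAX2, PAX5 and PAX8; PAX3 and PAX7; and PAX4 and PAX6. Polycomb repressive complex 1 (PRC1) keeps many developmental genes silent in embryonic stem cells. RNF2 is its catalytic subunit, and H2AK119ub is the ubiquitin mark that it places on histone H2A. YTHDF1 is a reader of N6-methyladenosine on RNA, and the study asked about YTHDF1 and the H2AK119ub that PRC1 places.

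The PAX genes lay in broad and highly enriched RNF2 domains, with PAX4 apart from the rest. All 9 windows held an RNF2 peak, where 75.9% of coding genes did, and all 9 held an H2AK119ub island, where 81.6% did. An RNF2 peak of at least 10 kb was present at 8 of the 9 genes, where 4.38% of coding genes had one. A peak of at least 50-fold enrichment was present at the same 8, where 1.64% of coding genes had one. Both bounds were set with the peaks known, so these counts are descriptions. For coding genes between the shortest and the longest member in length (7.85 to 201 kb), the share with an RNF2 peak of at least 10 kb was 3.37%. Among those genes 79.5% had any RNF2 peak and 84.6% any H2AK119ub island. This range held 13975 coding genes, and lengths within it were not matched. The median length was 62.9 kb for the PAX genes and 24.1 kb for all coding genes. Fold enrichments, scores and −log10 q values (q being the adjusted p of a peak) are the authors' own for each peak and were used within a list only, except for 1 common −log10 q minimum named below.

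**Figure D1:**
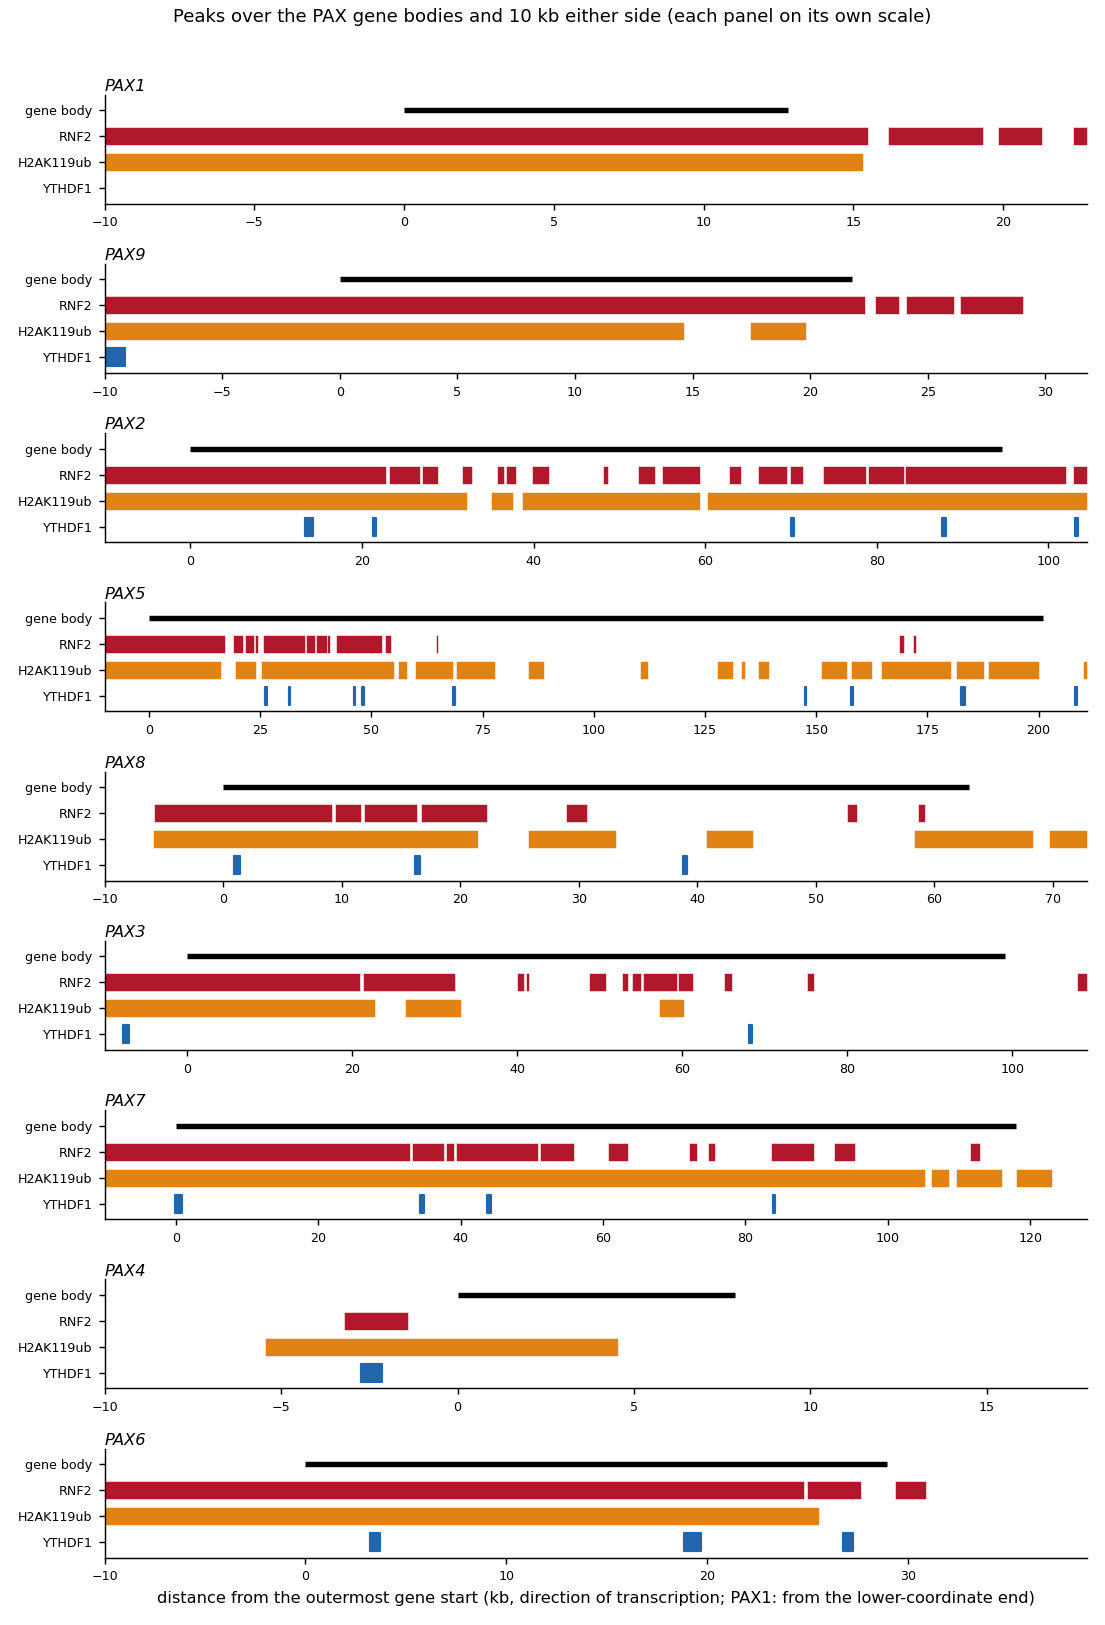
Peaks in the window of each PAX gene, drawn by distance in kb from the outermost gene start in the direction of transcription (for PAX1, from the lower-coordinate end). Black bars are gene bodies, and coloured bars are RNF2 peaks, H2AK119ub islands and wild-type YTHDF1 peaks, each panel on its own scale. H2AK119ub covers the start of all 9 genes and RNF2 that of all but PAX4, whose RNF2 peak lies 1.4 kb or more upstream, and PAX1 has no YTHDF1 peak.

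The sequence just before the outermost gene start also separated PAX4 from the other genes with a listed start. CG dinucleotides, which read the same on both strands, were counted in the 250 bases before the outermost start given by RefSeq (GRCh38.p14), which lists 8 of the 9 genes and not PAX1. PAX4, a transcription factor of pancreatic endocrine cells, had 1 CG in these bases (chr7:127618143-127618392, minus strand). PAX3, a factor of neural crest and muscle precursors, had 17 (chr2:222298999-222299248, minus strand). PAX5, the B-cell lineage factor, had 27, the most among the 8 (chr9:37034269-37034518, minus strand). PAX7, a factor of muscle satellite cells, had 18 (chr1:18630596-18630845, plus strand), and it is the member with a YTHDF1 peak over its start. These 4 are shown 5′ to 3′ with each CG in capitals, since they hold the lowest and highest counts, the start with the highest RNF2 enrichment among the 8 and the start under YTHDF1.
PAX4: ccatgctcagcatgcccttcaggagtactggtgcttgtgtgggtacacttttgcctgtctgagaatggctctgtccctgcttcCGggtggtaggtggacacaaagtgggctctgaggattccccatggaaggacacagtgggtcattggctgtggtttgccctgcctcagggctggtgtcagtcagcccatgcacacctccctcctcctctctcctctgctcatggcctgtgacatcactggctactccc
PAX3: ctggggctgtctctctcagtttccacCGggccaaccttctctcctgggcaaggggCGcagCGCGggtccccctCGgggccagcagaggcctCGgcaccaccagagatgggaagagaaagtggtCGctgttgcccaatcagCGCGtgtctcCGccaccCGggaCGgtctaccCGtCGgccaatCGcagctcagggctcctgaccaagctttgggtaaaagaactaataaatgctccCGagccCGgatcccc
PAX5: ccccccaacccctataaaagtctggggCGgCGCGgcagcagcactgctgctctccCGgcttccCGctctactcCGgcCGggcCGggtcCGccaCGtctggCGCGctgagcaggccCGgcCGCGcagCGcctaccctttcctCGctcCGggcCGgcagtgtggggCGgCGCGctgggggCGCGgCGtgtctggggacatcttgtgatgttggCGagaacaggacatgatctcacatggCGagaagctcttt
PAX7: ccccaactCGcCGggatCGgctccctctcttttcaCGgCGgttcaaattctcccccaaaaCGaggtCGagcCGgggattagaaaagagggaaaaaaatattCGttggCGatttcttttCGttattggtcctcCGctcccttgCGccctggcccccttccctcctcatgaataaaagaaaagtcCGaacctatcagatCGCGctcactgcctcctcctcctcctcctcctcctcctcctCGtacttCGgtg

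The remaining outermost starts had 10 CG at PAX2, 11 at PAX8, 13 at PAX9 and 22 at PAX6. An RNF2 peak overlapped these 250 bases at 7 of the 8 genes, PAX4 being the exception, and an H2AK119ub island did so at all 8. Among 13820 coding genes with an outermost start in the table, the median was 17 CG. Over these bases 64.0% of them had RNF2, 70.7% had H2AK119ub and 13.7% had YTHDF1. A YTHDF1 peak overlapped the bases at PAX7 alone of the 8 PAX genes, which is near that share. The share with RNF2 was 10.1% among 3133 genes with 0 to 5 CG, 55.7% among 2724 with 6 to 14, and 88.0% among 7963 with 15 or more. The PAX genes held counts on either side of the median of all genes, with 4 of the 8 at 15 or more. Inner starts of PAX6 at 31806925 and 31803673 had only 3 and 5 CG in the 250 bases before them, and RNF2 overlapped these bases. The inner start of PAX4 had 0 CG and no RNF2 there. The count is a description of these bases.

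**Figure D2:**
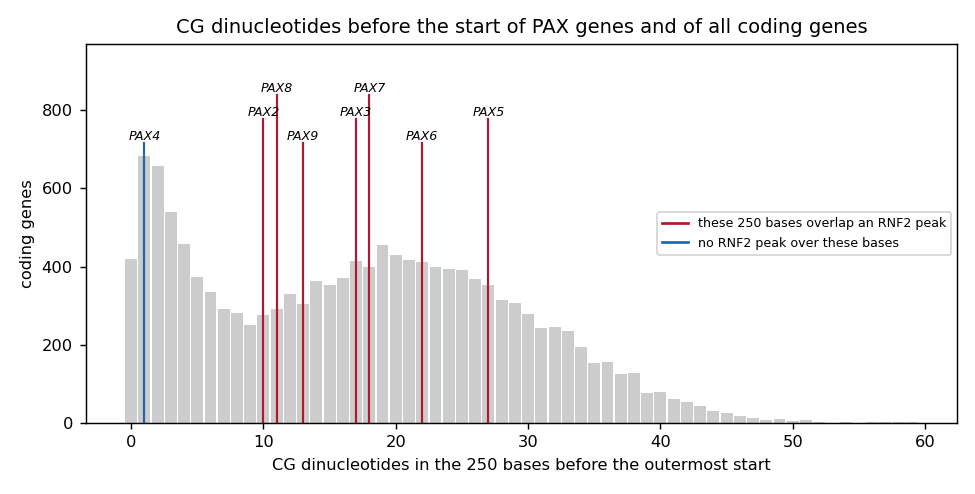
CG dinucleotides in the 250 bases before the outermost start (horizontal axis) and the number of coding genes with each count (grey bars, n = 13820). Vertical lines mark the 8 PAX genes in the table, in red where an RNF2 peak overlaps these bases and in blue where none does. PAX4 stands at 1 CG and the other 7 at 10 to 27.

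PAX1 and PAX9 pattern the sclerotome and the pharyngeal pouches, and their windows were the most fully covered by RNF2. PAX1 (chromosome 20, 21705664 to 21718481) lay whole under an RNF2 peak of 31.3 kb and 97.6-fold (21689884 to 21721140). Only 28 of the 29310 RNF2 peaks in the list had a higher fold enrichment. The H2AK119ub island over it, 21690001 to 21721000, began 117 bp and ended 140 bp from the edges of that peak. RNF2 covered 93.3% of the PAX1 window and H2AK119ub 77.2%, and 3 small RNF2 peaks of 2.97-fold to 4.59-fold followed beyond the island. The leading peak also took in 14.8% of the neighbouring long noncoding RNA gene LINC01726.

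PAX9 (chromosome 14, 36657568 to 36679362) lay whole under an RNF2 peak of 39.8 kb and 58.8-fold (36640074 to 36679887). Its H2AK119ub island, 36637401 to 36672200, began 2673 bp before that peak and ended 7687 bp short of its end, so the 3′ part of the gene had RNF2 with only a further island of 2.4 kb. RNF2 covered 91.1% of the PAX9 window and H2AK119ub 64.7%. Stretches with RNF2 alone made up 26.4% of the window, and there was none with H2AK119ub alone. The mitochondrial carrier gene SLC25A21, which overlaps the end of PAX9, had 3.57% of its 494.7 kb under RNF2.

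PAX2, PAX5 and PAX8 act in kidney, mid-hindbrain, B cells and thyroid. At these genes, as at PAX7 and PAX4, H2AK119ub covered more of the window than RNF2. Pooled over all coding-gene windows, H2AK119ub also covered more, 15.7% beside 3.57%. PAX2 (chromosome 10, 100735396 to 100829944) had the widest RNF2 peak of the family, 51.7 kb at 71.2-fold, running from 28.9 kb upstream to 22.8 kb downstream of its outermost start. A further RNF2 peak of 18.8 kb and 31.6-fold (100818672 to 100837497) covered the 3′ end of the gene. Between them lay small peaks, and the window held 17 RNF2 peaks in all, the most of the 9. H2AK119ub covered 96.0% of the PAX2 window in 4 islands, against 75.2% for RNF2.

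PAX5 (chromosome 9, 36833269 to 37034268), the longest of the genes at 201 kb, had its strong RNF2 peaks within the stretch of the gene nearest its start. Its leading RNF2 peak measured 26.8 kb and 56.2-fold (37017282 to 37044075) and covered the start. Peaks of 9.52 kb at 15.8-fold and 10.4 kb at 14.5-fold followed at 25.5 to 35.04 kb and 42.1 to 52.5 kb into the gene. The inner noncoding gene LOC105376032 had 95.5% of its length under RNF2. PAX5 carried 17 H2AK119ub islands, of which 6 overlapped an RNF2 peak, where 39.9% of the whole island list did. In its window 35.5% had H2AK119ub without RNF2. RNF2 covered 27.2% of the window and H2AK119ub 62.1%.

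PAX8 (chromosome 2, 113215997 to 113278921) had a narrower leading RNF2 peak, 14.98 kb at 72.0-fold (113269770 to 113284747), which ended 53 bp from the edge of its H2AK119ub island of 27.4 kb. Chains of RNF2 peaks under 5-fold filled the rest of that island. RNF2 covered 36.8% of the window and H2AK119ub 62.7%. The antisense gene PAX8-AS1 had 37.4% of its length under RNF2 and 62.5% under H2AK119ub.

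PAX3 and PAX7, the pair of neural crest and muscle precursor factors, had leading RNF2 peaks of similar width but different H2AK119ub extents. PAX3 (chromosome 2, 222199887 to 222298998) had the highest fold enrichment of the family, 98.1-fold over 49.5 kb (222278041 to 222327512). The noncoding gene CCDC140, which starts beside PAX3, lay whole inside this peak. The H2AK119ub island over it measured 51.2 kb and matched it to within 1840 bp at the lower and 112 bp at the upper edge. Deeper in the gene lay an RNF2 peak of 11.2 kb and 6.83-fold and then only smaller ones, with 2 short islands of H2AK119ub, and 12.6% of the window had RNF2 alone. RNF2 covered 47.4% of the PAX3 window and H2AK119ub 35.8%.

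PAX7 (chromosome 1, 18630846 to 18748866) had an RNF2 peak of 43.7 kb and 68.6-fold (18620037 to 18663764). Its H2AK119ub island was 140.4 kb long (18595601 to 18736000), and only 16 of the 43331 islands in the list were wider. The RNF2 peak made up 31.1% of that island. H2AK119ub covered 93.6% of the PAX7 window and RNF2 58.2%.

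PAX4 and PAX6 act in the pancreas, and PAX6 also in eye and brain, and the pair had unlike profiles. PAX6 (chromosome 11, 31789026 to 31817961) had 94.9% of its body under RNF2, most of it in a peak of 43.0 kb and 75.2-fold (31793160 to 31836161) that lay inside an H2AK119ub island of 46.6 kb. All 9 PAX6 start sites in the RefSeq table were under both, and so was the whole of PAUPAR, a noncoding gene upstream. The overlapping neighbour ELP4, a subunit gene of the Elongator complex, had 0.854% of its 280.6 kb under RNF2. PAX4 (chromosome 7, 127610292 to 127618142) had a single RNF2 peak of 1826 bp and 4.64-fold (127619542 to 127621367), from 3.23 to 1.4 kb upstream of its start. In the RNF2 list 32.8% of peaks had a higher fold enrichment. Its H2AK119ub island measured 10 kb with a score of 54.9 and covered the start, while the leading islands of the other 8 genes were at the capped score of 1000. In the whole list 8.06% of islands were at that score. No RNF2 or H2AK119ub lay on the neighbouring gene FSCN3.

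**Figure D3:**
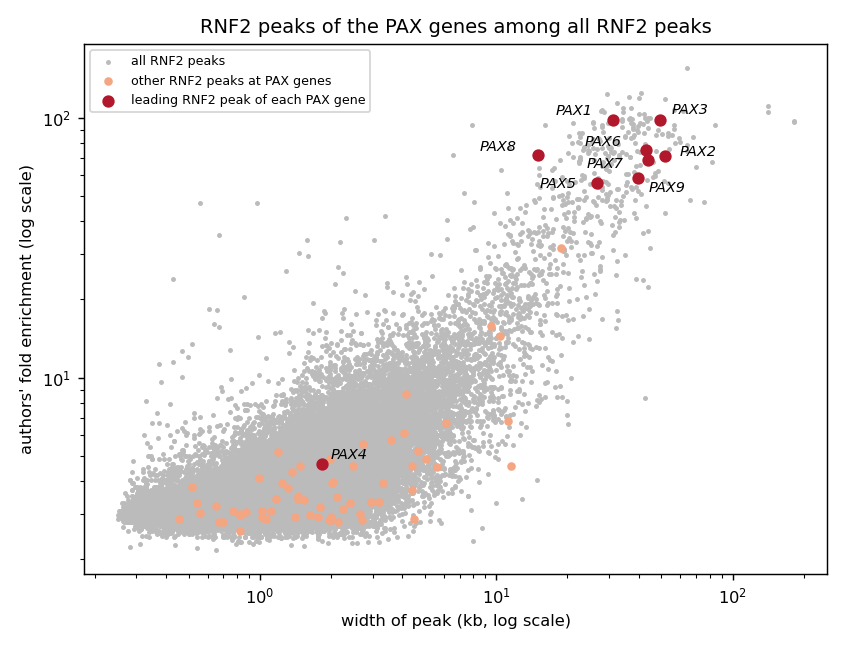
Width in kb and the authors' fold enrichment of every RNF2 peak in the list (grey, n = 29310; both axes log scale), with the other RNF2 peaks at PAX genes in light orange and the leading peak of each gene, the one with the longest overlap with its window, in red. The leading peaks of 8 genes lie between 14.98 and 51.7 kb and between 56.2-fold and 98.1-fold, and that of PAX4 is at 1.83 kb and 4.64-fold.

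Ordered by fold enrichment of the leading RNF2 peak, the genes ran PAX3, PAX1, PAX6, PAX8, PAX2, PAX7, PAX9, PAX5 and PAX4. Without replicate lists it is unknown which neighbours in this order differ beyond their error. The 60 RNF2 peaks under 10 kb at these genes had a median of 3.33-fold and a range from 2.57-fold to 15.8-fold. The median of the whole RNF2 list was 3.74-fold. Of the 60, 50 lay inside gene bodies, which make up 78.2% of the length of the windows. The median over the 9 genes was 58.2% of the window under RNF2. It was 3.05% over all coding genes and 3.17% over those in the length range of the PAX genes. For H2AK119ub it was 64.7%, beside 15.5% and 15.03%. Each of the 9 genes was above the median of all coding genes for both marks. An island of at least 10 kb was present at all 9, though that of PAX4, at 10 kb, lay exactly on this bound, set with the peaks known. Such an island was present at 37.4% of coding genes and 36.1% of those in that length range. RNF2 covered more of the window than H2AK119ub at 4 genes (PAX1, PAX9, PAX3 and PAX6) and less at the other 5. The caller of each list is not given in the sources used here, and the part that calling plays in the extents of the 2 marks was not tested.

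**Figure D4:**
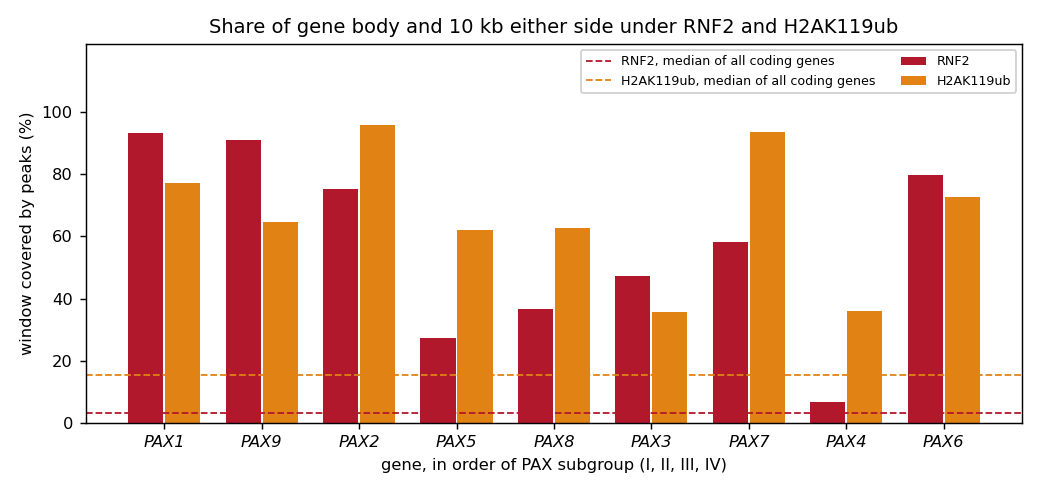
Percent of each PAX window under RNF2 peaks (red bars) and H2AK119ub islands (orange bars), with the genes in order of subgroup. Dashed lines give the medians over all coding genes, 3.05% for RNF2 and 15.5% for H2AK119ub, and every bar stands above its line.

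The summit of the leading RNF2 peak lay 2.01 to 3.24 kb from the nearest listed start at 7 of the 8 genes with listed starts. At PAX6, which has 9 listed starts, it lay 0.793 kb from an inner start and 16.5 kb into the gene from the outermost one. At PAX2 it lay 2.51 kb from the inner start at 100745582 and 12.7 kb from the outermost. Within 2 kb of the outermost start, RNF2 and H2AK119ub were present at all 9 genes (PAX1 by either end, since its strand is not in the table), where 65.2% and 73.8% of coding genes had them. Of the 19 listed start sites, 17 were under RNF2, the 2 others being those of PAX4, and all 19 were under H2AK119ub.

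The leading RNF2 peaks lay largely within H2AK119ub islands. At each of the 9 genes over 80% of the leading RNF2 peak lay in 1 island, from 80.7% at PAX9 to 100% at PAX2, PAX8, PAX7, PAX4 and PAX6. The reverse share, that of the island inside the leading peak, was lower at some genes, with 18.3% at PAX4, 31.1% at PAX7 and 54.7% at PAX8, against 81.6% or more at the other 6. Counted over all peaks, 56 of the 72 RNF2 peaks at the family overlapped an island (77.8%), beside 85.1% of the whole RNF2 list. Of the 38 islands, 24 overlapped an RNF2 peak (63.2%), beside 39.9% of the whole island list.

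YTHDF1 peaks were present at 8 PAX genes, with fold enrichments near the median of the list. The wild-type list held 28 YTHDF1 peaks at 8 of the 9 genes. In the same kind of window 65.7% of coding genes had at least 1 peak, and 69.2% of those in the length range of the PAX genes did. PAX5 had 9, PAX2 had 5, PAX7 had 4, PAX6 and PAX8 had 3 each, PAX3 had 2, and PAX4 and PAX9 had 1 each. PAX1, with the second highest RNF2 enrichment, had none in its window, and its nearest YTHDF1 peak lay 34.7 kb from the gene at 2.81-fold. Per 100 kb of window the numbers at the 8 genes with a peak ran from 1.68 at PAX3 to 6.13 at PAX6. Fold enrichment ranged from 2.70 to 3.23 with a median of 2.81, against 2.89 for the whole list of 44498 peaks.

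The YTHDF1 peaks with the highest −log10 q, 2.49, were a 308 bp peak inside PAX5 (37007823 to 37008130, 3.23-fold) and a 274 bp peak inside PAX7 (18714673 to 18714946, 3.07-fold). In the whole list 20.1% of YTHDF1 peaks reached that value. The median −log10 q at the family was 1.60, against 1.87 for the list, and 21 of the 28 were under 2, where 62.5% of the list was. No PAX gene had a YTHDF1 peak with a −log10 q of at least 4. Such a peak was present at 5.48% of coding genes and 5.44% of those in the length range of the PAX genes. The lowest −log10 q of the list is 1.502.

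**Figure D5:**
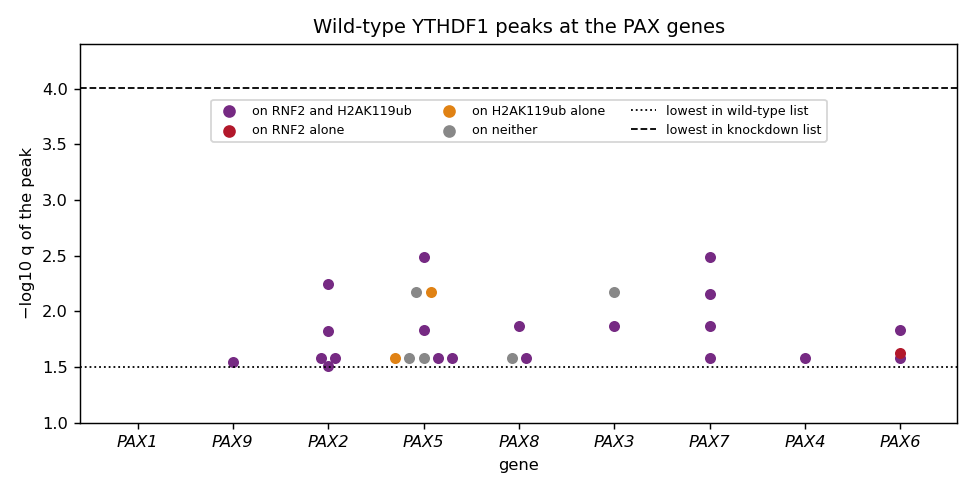
The −log10 q (vertical axis, from 1) of each of the 28 wild-type YTHDF1 peaks, by PAX gene in order of subgroup, coloured by overlap with RNF2 and H2AK119ub; the dotted and dashed lines are the lowest values in the wild-type list (1.502) and the knockdown list (4.007). All points lie between 1.51 and 2.49, below the dashed line, and PAX1 has none.

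Within 2 kb of the outermost start, YTHDF1 peaks were present at 2 of the 9 genes, PAX7 and PAX8, which is near the background of 23.4% of coding genes. The PAX7 peak (18630668 to 18631712, 2.95-fold) covered the start and reached 0.866 kb into the gene, and it overlapped the bases printed above for PAX7. The PAX8 peak (113277470 to 113277963, 2.95-fold) lay 0.958 to 1.45 kb into the gene. Of the 28 peaks, 22 (78.6%) lay wholly inside gene bodies, which make up 78.2% of the length of the windows. PAX4 had its YTHDF1 peak (127620288 to 127620884, 2.73-fold) 2.15 to 2.74 kb upstream, inside its small RNF2 peak. PAX9 had a peak of 1691 bp (36646760 to 36648450) that crossed the edge of the window, with 883 bp inside it.

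YTHDF1 peaks at the family mostly lay on PRC1 chromatin. Of the 28, 21 overlapped an RNF2 peak (75.0%, 95% Clopper-Pearson interval 55.1 to 89.3, for counting error only). An H2AK119ub island was overlapped by 22 (78.6%, 59.0 to 91.7). Both intervals take the peaks as independent, though 14 of the 28 lay at PAX5 and PAX2. Over all 27015 YTHDF1 peaks in coding-gene windows the shares were 18.6% and 38.1%. The windows of the PAX genes were far more widely covered by both marks than those of other genes. Pooled over bases, RNF2 covered 51.15% of the PAX windows and 3.57% of all coding-gene windows. For H2AK119ub the pooled cover was 68.8% and 15.7%. The part of that cover in these shares was not tested. Both marks lay under 20 of the 28, neither under 5, H2AK119ub alone under 2, and RNF2 alone under 1, a peak at the 3′ end of PAX6 (31790721 to 31791177). At each of the 8 genes with YTHDF1, at least 1 YTHDF1 peak overlapped both. The matching shares for both marks together over all coding-gene windows were not computed, so these counts are descriptions.

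Members differed in where those peaks lay. PAX2 and PAX7 had all of theirs, 5 and 4, on both marks. PAX5 had 4 of its 9 on RNF2, all in the peaks of 9.52 and 10.4 kb inside the gene and none in its leading peak. PAX3 had 1 on both marks, 7.09 kb upstream of the start (222306092 to 222306772, 2.75-fold) and 1 on neither deep in the gene (222230536 to 222230850, 3.09-fold). Without PAX5, the gene with the most peaks, 17 of 19 YTHDF1 peaks overlapped RNF2 and 16 of 19 overlapped H2AK119ub. In all, 9 of the 28 (32.1%) fell in a leading RNF2 peak. The share of the windows under the leading peaks was not set beside this count, which is a description.

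Per length of chromatin, the PAX windows held 4.49 YTHDF1 summits per 100 kb inside RNF2 peaks (19 summits in 423.0 kb) and 1.98 outside (8 in 404.0 kb). Over all coding-gene windows the densities were 9.03 inside and 1.54 outside. RNF2 peaks of at least 10 kb in the whole list had 3.79 summits per 100 kb, and those under 10 kb had 9.4. The 8 broad leading peaks of the PAX genes, taken whole, had 3.99 (12 in 300.8 kb). The list value includes these 8 peaks, and the difference was not tested. A YTHDF1 peak was present in 6 of these 8 domains, and in 52.5% of all RNF2 peaks of at least 10 kb.

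In the knockdown list no YTHDF1 peak lay at any PAX gene. Of coding genes 1.14% had one, and 1.04% of those in the length range of the PAX genes. None lay within 2 kb of a PAX start, where 0.439% of coding genes had one. The nearest was 1.15 Mb away, at PAX9, and the farthest nearest peak was 12.2 Mb away, at PAX5. That list holds 226 peaks with a lowest −log10 q of 4.01, against 44498 with a lowest of 1.502 in wild type, so the lists begin at different strengths. At a common minimum of 4 both lists had 0 peaks at the PAX genes. None of the 28 wild-type peaks reached the lowest value of the knockdown list, so a loss of YTHDF1 and the difference in threshold cannot be told apart at these genes. The samples included no RNF2 or H2AK119ub libraries from knockdown cells. The level of YTHDF1 itself in the knockdown cells is not measured by peaks.

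All 3 wild-type features were present at 8 of the 9 genes, where 55.7% of coding genes had all 3. In the next 10 kb beyond the windows there were 6 YTHDF1, 15 RNF2 and 6 H2AK119ub peaks that touched no window. The closest YTHDF1 peak outside was 11.4 kb from PAX7, at 2.80-fold, and the closest RNF2 peak outside was 10.6 kb from PAX5, at 3.10-fold.

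Other genes of PAX biology, listed with earlier results of these data known, are given by counts. Among 32 homeobox genes of the paired class without a paired domain, 28 had RNF2, 21 had YTHDF1 and 21 had an RNF2 peak of at least 10 kb, beside 75.9%, 65.7% and 4.38% of coding genes. The count with YTHDF1 is near that background. The longest was at DMBX1, with 56.7 kb and 90.6-fold. Their median cover by RNF2 was 49.96% of the window, beside 58.2% for the PAX genes.

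Among 15 genes known as targets of PAX proteins, 12 had RNF2 and 10 had YTHDF1, both near the same backgrounds, and 3 had an RNF2 peak of at least 10 kb. Their median cover by RNF2 was 9.51%. The longest RNF2 peak was at NKX3-2, a sclerotome factor, with 39.6 kb and 89.3-fold, while the thyroid gene TG, the B-cell gene BLNK and the lens gene CRYAA had no RNF2 peak. Of 4 pluripotency genes, 3 had RNF2, 1 had YTHDF1 and 4 had H2AK119ub, beside 75.9%, 65.7% and 81.6% of coding genes. Their median cover by RNF2 was 9.44% of the window, beside 58.2% for the PAX genes. By H2AK119ub it was 70.7%, beside 64.7% for the PAX genes, and ran from 6.72% at NANOG to 100% at SOX2. SOX2, which is also a neural factor, had the longest RNF2 peak of the 4, with 23.5 kb and 25.0-fold, and NANOG had none. No knockdown YTHDF1 peak lay at the genes of these lists except at 1 of the 32 paired-class genes.

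The coding genes with cover nearest to the PAX medians of 58.2% RNF2, 64.7% H2AK119ub and 1.82% YTHDF1 were FOXQ1, RNF39, LAMP5, CPXM1 and B3GNT9. Likeness was the Euclidean distance over these 3 percentages, 1 list each, and ran from 2.80 to 4.82 percentage points. FOXQ1, a forkhead transcription factor, had 56.5% RNF2, 66.0% H2AK119ub and no YTHDF1 peak. LAMP5, a lysosome-associated membrane protein gene of brain, had 58.5%, 61.3% and 1.40% in the same order.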

How the data were processed

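ChIP-seq peak lists of YTHDF1, RNF2 and H2AK119ub from H1 cells and of YTHDF1 from knockdown cells were used, 1 for each group of 2 replicates, merged by the authors. The submitters' processing notes name the build hg38, MACS2 2.1.0, SICER 1.1, Bowtie2 2.2.5, Trimmomatic 0.35, SAMtools 1.3.1 and Picard, with no role or order. For no list are the caller and threshold given in the sources used here. The deposited lists give each YTHDF1 and RNF2 peak a fold enrichment (a ratio), −log10 p and −log10 q values, a score and a summit. The deposited H2AK119ub list gives each island a score, capped at 1000, and its edges lie on a 200 bp grid. No read counts are given, so depth is unknown.

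Peaks were joined to RefSeq gene bodies with 10 kb on either side, by an overlap of at least 1 bp, with Python 3.11.15, pandas 2.3.3, NumPy 2.4.6, SciPy 1.17.1 and matplotlib 3.10.9. The overlap code was tested on simulated data. The background was all 20037 coding genes. Starts and strands came from the RefSeq promoter table (GRCh38.p14), which lists 8 of the 9 genes, so both ends of PAX1 counted as starts. The leading RNF2 peak is the one with the longest overlap with the window, and its island the one that shares most bases with it. No test was made, since each group is 1 merged list. Named genes were all 9 PAX genes, the gene with the longest RNF2 peak and those without RNF2 in 3 lists (paired class; PAX targets; pluripotency), and the 5 genes nearest in cover. A further list, and the paired-class genes without RNF2 by name, are not reported here. The members and lists were chosen with earlier results of these data known, and the CG counts after the peaks were seen. Alternatives were the flank, the start window, the peak threshold, the overlap, joining of peaks within 1 kb and the background.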

Additional observations from a re-analysis of the deposited data

How the results depend on the processing

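Of 73 recomputed values for 19 results, 59 stayed within the bounds set and 14 moved. The bounds were 5 percentage points for cover, 1.5 times for counts, and the 95% interval of the reported share for shares of YTHDF1 peaks. That interval is wide, from 55.1 to 89.3 for the share on RNF2. Some of the 59 could not move. A −log10 q minimum of 4 removes no peak from the RNF2 list (lowest 4.006) or the knockdown list (lowest 4.007). Knockdown counts of 0 could not fall, and RNF2 and H2AK119ub counts of 9 could not rise. YTHDF1 was present at 8 genes, at 5 with the better-scoring 50% of peaks and at 0 with a −log10 q of at least 4. Near the start, 2 genes had YTHDF1 within 2 kb, 1 within 500 bp and 4 within 5 kb. The 28 YTHDF1 peaks became 7 at a −log10 q of at least 2, 0 at 4, where the knockdown list also had 0, and 43 with 50 kb flanks. Their share on RNF2 ranged from 57.1% (4 of 7, at a −log10 q of at least 2) to 75.0%, with 65.1% for 50 kb flanks, and that on H2AK119ub from 71.4% to 82.1%. The median cover by RNF2 (58.2%) was 40.7% with 50 kb flanks and 51.0% with the better-scoring 50% of peaks. For H2AK119ub (64.7%) it was 78.2% without flanks, 73.8% with 2 kb, 42.2% with 50 kb and 58.9% with the better-scoring 50%. The wider or narrower flanks change the window measured, and stricter thresholds keep fewer peaks. Without flanks RNF2 was present at 8 genes, PAX4 being lost. No paired analysis was possible because the authors merged the replicates, and for the same reason no replicate could be left out. Depth is unknown and sets which weak peaks were called.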
